A study of Homo sapiens with 18 samples.

Results

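The change in translational efficiency on knockout of the DAMP micropeptide was measured for 10168 genes, out of 61487 counted in each library. Translational efficiency is the level of ribosome footprints of a gene relative to its mRNA. Its change is the interaction of assay and condition, given here as a log2 value for sgDAMP over sgControl. The genes are those that passed a count filter in both assays (edgeR's filterByExpr with a minimum count of 10), and the measurement uses 12 of the 18 libraries of the series. All of them come from NCI-H1975, an established human lung adenocarcinoma line. The labels give sgControl as the CRISPR control and sgDAMP as the DAMP knockout, with 3 mRNA and 3 footprint libraries each. Cells of both conditions taken for footprints had been treated with cycloheximide at 100 μg/ml, which holds ribosomes in place. The remaining condition, Scramble, has 3 libraries per assay and serves here only as a side view. The deposited tables of sgDAMP carry the name sgTIAMP and were joined to the labels by accession. Whether sgDAMP is 1 clone or a pool of edited cells, and which guides were used, is not given in the sources used here. The labels do not say that replicates came from separate cultures, so p-values measure only the spread between these libraries, which may be technical.

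A messenger RNA is translated when initiation factors bring the small ribosomal subunit to its capped end, and the factors at the cap can touch the poly(A)-binding protein at the other end, which closes the mRNA into a loop. YTHDF1 is a reader of m6A, a methyl mark on adenosines of mRNA, and is known for raising the translation of marked transcripts. Some RNAs annotated as long noncoding hold short reading frames that ribosomes translate into micropeptides. DAMP is such a peptide, assigned by the series to DSP-AS1, and the question the series states is which mRNAs change in translation without it, beyond changes in their amount.

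Translational efficiency passed the test in 52 of the 10168 genes (0.511%, edgeR quasi-likelihood F test, Benjamini-Hochberg adjusted p under 0.05). It was lower in sgDAMP for 45 genes (0.443%) and higher for 7 (0.0688%). The lower genes included BCL2L1, which encodes the survival protein BCL-XL, the cell-cycle kinase gene CDK4, the receptor genes EGFR, IGF1R and TGFBR1, the signalling genes SMAD2 and CTNNB1, and DSP-AS1 itself. Their interactions ran from -8.62 to -3.02 with a median of -4.15, against a median of -0.004 over all genes tested and a central range (5th to 95th percentile) of -1.07 to 1.12. The higher genes included BTG2 and FDXR, both known targets of p53, with interactions of 3.04 and 3.10. At an unadjusted p under 0.05 there were 313 genes. Protein-coding genes made up 44 of the lower and 4 of the higher genes.

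Some measured facts of the libraries touch these counts. The mRNA libraries held 17098397 to 17464782 gene counts in sgControl and 17171514 to 17455799 in sgDAMP. The footprint libraries held 6845899 to 7840852 and 6207783 to 6864945, respectively. The 3 footprint libraries of a condition differed by no more than sampling noise over most genes. Their mean chi-square per degree of freedom was 0.909 in sgControl and 0.91 in sgDAMP over the lowest 99% of genes. Poisson sampling gives 1 over all genes, and somewhat less once the highest values are left out. The 3 libraries were therefore summed and counted as 1 sample per condition. The same measure was 38.3 and 64.7 in the mRNA libraries, so the spread in the test comes from the 6 mRNA libraries alone, and the single footprint samples are assumed to vary like them. With each of the 12 libraries as a sample of its own, 359 genes passed (3.53%), 205 higher (2.02%) and 154 lower (1.51%), and all 52 genes were among them with the same sign. The number of calls depended on single mRNA libraries. Without sgDAMP mRNA replicate 1 it fell to 27 (26 lower, 1 higher), and without sgDAMP mRNA replicate 3 to 28 (27 lower, 1 higher). Without sgControl mRNA replicate 2, 32 lower and 3 higher genes passed. The identity of the cells was checked with their markers: of 11 lung adenocarcinoma markers 5 exceeded 10 CPM (counts-per-million) in every group, with SFTPB, NAPSA and NKX2-1 at 0 in footprints of both conditions, SFTPB also in sgDAMP mRNA, and MUC1 in sgControl footprints. Markers of fibroblasts, leukocytes and endothelial cells summed to at most 15.1 CPM per list, with none over 10 CPM.

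The lower genes stood apart from other genes in the agreement of the sgControl footprint libraries. In 34 of the 45 these 3 libraries differed beyond Poisson sampling (chi-square test, Benjamini-Hochberg adjusted p under 0.05), against 44 of the 9741 genes with at least 30 summed counts (0.452%), 43 of the 2806 with at least 1000 (1.53%), and 9 of 2764 of those that were not called lower (0.326%). The coefficient of variation of the 3 libraries was 1.17% to 22.5% over the 45 genes. Among those with at least 1000 summed counts it had a median of 9.32% (42 genes), and 2.65% in the other genes of that depth. In the sgDAMP footprint libraries 0 of the 43 with enough counts differed beyond Poisson sampling, against 0.15% of all 10005 genes, but the depth of the 45 genes was lower there. The 17 that reached 1000 summed counts in sgDAMP had a median coefficient of variation of 2.39%, against 2.68% over the other genes of that depth. The differences between sgControl libraries were small beside those between conditions, since the footprints of the 45 genes fell by 2.62 to 8.68 on the log2 scale. For these 34 genes the summing to 1 sample does not hold within sampling noise. All of them also passed with 12 separate libraries, but that fit is less strict, passing 359 genes against 52, and gives little separate support. What part the spread between sgControl footprint libraries has in the result was not tested.

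**Figure D1:**
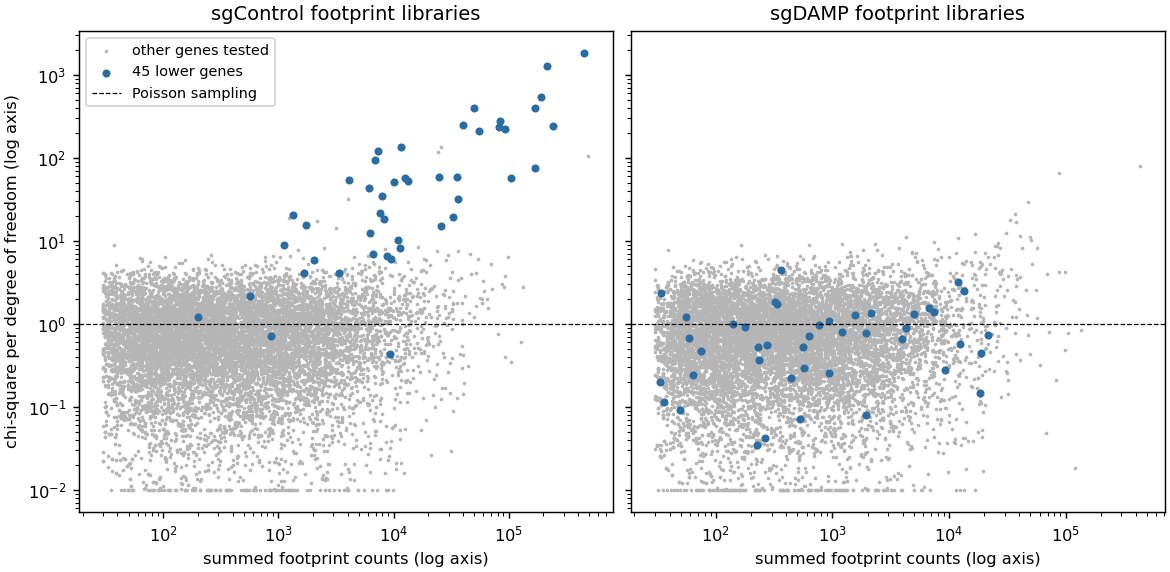
Agreement of the 3 footprint libraries of each condition, gene by gene. The horizontal axis is the summed footprint count and the vertical axis the chi-square per degree of freedom against Poisson sampling, both on log axes, with values under 0.01 drawn at 0.01. Blue points are the 45 lower genes and grey points the other genes tested. In sgControl 34 of the blue points lie beyond sampling noise, and in sgDAMP the blue points lie at lower counts, where 17 reach 1000.

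DSP-AS1, the gene that gives rise to DAMP, is a long noncoding RNA by its RefSeq annotation and lies on chromosome 6 (7540451 to 7543083, GRCh38.p14), where its span overlaps that of DSP, the gene of the desmosome protein desmoplakin, on the opposite strand. The window around the outermost of its 3 RefSeq starts, chr6:7543034-7543333 on the minus strand, is printed because mRNA reads from this gene overlapped between the conditions while its footprints did not. It runs 5′ to 3′ from 250 bases before the start to 50 bases after it, and the capitals mark the transcribed bases.
DSP-AS1: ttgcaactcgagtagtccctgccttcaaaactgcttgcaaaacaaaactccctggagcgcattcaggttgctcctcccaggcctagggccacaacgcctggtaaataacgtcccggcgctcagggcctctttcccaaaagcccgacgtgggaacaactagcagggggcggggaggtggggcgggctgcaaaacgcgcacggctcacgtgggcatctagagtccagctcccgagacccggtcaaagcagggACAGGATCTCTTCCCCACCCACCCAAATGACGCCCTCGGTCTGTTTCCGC

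DSP-AS1 mRNA stood at 17.2, 19.2 and 17.7 CPM in sgControl and 18.6, 18.6 and 19.4 CPM in sgDAMP, and the groups overlapped. Its footprints stood at 25.6, 22.4 and 27.7 CPM in sgControl and 0, 0.146 and 0.146 CPM in sgDAMP. In counts these were 175, 176 and 216 footprints against 0, 1 and 1, so every sgDAMP library lay below every sgControl library. The gene passed the footprint count filter only through sgControl, where it is high. The separation was therefore built in and gives no support of its own. The summed footprints were 296-fold lower (95% counting interval 81.6 to 2450), an interval that covers counting error only, as do all those given here. The interaction was -8.02 (SE 0.80, adjusted p = 0.000584). The mRNA change was -0.07 (SE 0.27) and did not pass (edgeR adjusted p = 0.957). As a check of the labels, the sgDAMP footprint libraries lacked nearly all footprints on the gene, while its RNA remained. The check is a weak one, because deep losses were not particular to DSP-AS1. Summed footprints were 414-fold lower in BCL2L1 and 221-fold lower in TWIST1. Whether the counting used strand is not given in the sources used here, so reads of DSP-AS1 and DSP cannot be told apart where the genes share sequence.

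DSP and YTHDF1 did not pass. Footprints of DSP stood at 139, 144 and 136 CPM in sgControl and 172, 164 and 165 CPM in sgDAMP, and the mRNA at 67.7, 66.7 and 56.1 CPM in sgControl and 69, 36.9 and 40.2 CPM in sgDAMP. The footprint groups of DSP did not overlap in CPM, but after TMM scaling the ratio was 1.02 (95% counting interval 0.968 to 1.07), and the interaction was 0.59 (SE 0.62, adjusted p = 0.9999). YTHDF1 footprints stood at 7.74, 5.99 and 7.71 CPM in sgControl and 10.3, 11.8 and 13 CPM in sgDAMP, with all 3 sgDAMP libraries above the sgControl libraries. YTHDF1 mRNA stood at 71.5, 68.3 and 86.1 CPM in sgControl and 70.3, 65.9 and 69.2 CPM in sgDAMP, which overlapped. After scaling the footprint ratio was 1.40 (interval 1.14 to 1.72), and the interaction was 0.78 (SE 0.54, adjusted p = 0.9999). For 3 against 3 libraries of which the footprints count once, changes of this size were not detectable: the median SE over all genes was 0.68, and the smallest change that passed was -3.02.

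In the genes that passed, footprints changed more than mRNA. A gene was taken as footprint-led where the log2 change of its footprints was at least 2 times that of its mRNA in size, and this held for 52 of 52 genes, against 32.7% of all genes tested. With a ratio of 3 it held for 51, the exception being RN7SL3, and for 23.3% of all genes tested. The footprint change is part of the interaction that chose these genes, so the counts describe them only. The mRNA changes of the 45 lower genes ran from -2.17 to 0.42 with a median of -0.07. None passed in mRNA (smallest edgeR adjusted p 0.482, 3 genes at an unadjusted p under 0.05), as none of 14032 genes did (0% called). In bulk samples fewer cells with a transcript and less RNA per cell cannot be told apart. The summed footprints of the same 45 genes fell by 2.62 to 8.68 with a median of -4.24. The 45 genes lay on 19 chromosomes with at most 6 on any of them. The span of 26 of the 45 overlapped another gene, against 46.9% of all genes tested.

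**Figure D2:**
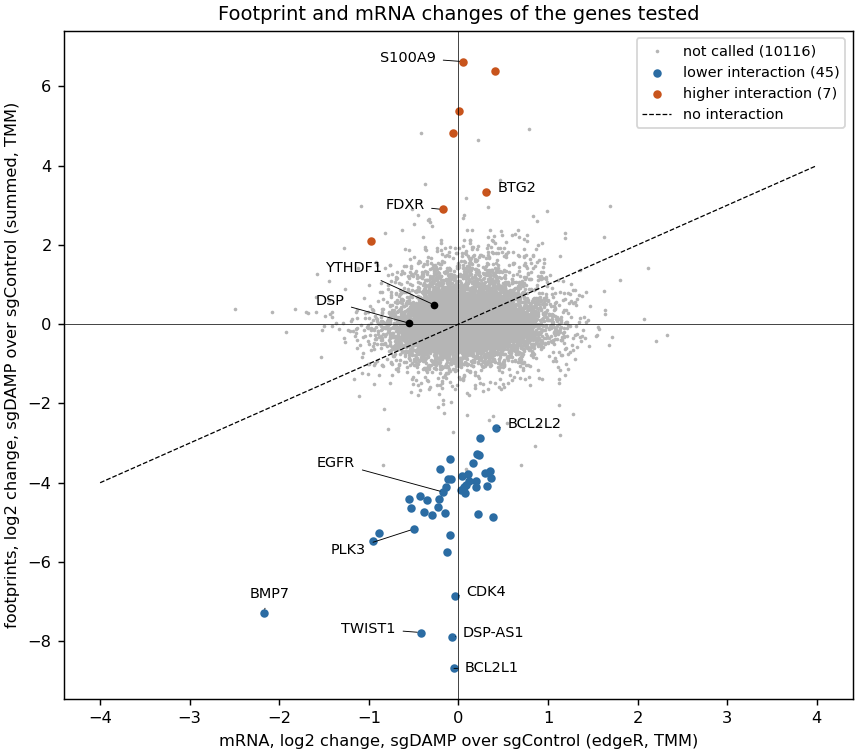
Change of summed footprints (vertical axis) against change of mRNA (horizontal axis) for the 10168 genes tested, both as log2 of sgDAMP over sgControl after TMM scaling within each assay. Each point is a gene. The 45 lower genes (blue) lie between -2.62 and -8.68 on the footprint axis and mostly near 0 on the mRNA axis, the 7 higher genes (orange) lie above 2, and the dashed line marks equal change in both assays.

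The lower genes carried a large share of the sgControl footprints. Together they held 10.8%, 10.1% and 9.46% of the gene counts in sgControl footprint replicates 1 to 3, and 0.755%, 0.758% and 0.758% in those of sgDAMP. In mRNA they held 0.964% to 1.24% in sgControl and 0.734% to 1.1% in sgDAMP. Of the 325 genes with at least 10000 summed sgControl footprints, 24 were called lower, against 0.443% of all genes tested. The 325 were picked by sgControl footprints, which also enter the calls, so an excess was built in and the count is descriptive. The median mRNA level of the 45 genes in sgControl was 27.2 CPM against 16.6 CPM over all genes tested, while their median footprint level was 487 CPM against 13.1 CPM. Since the total of a library enters each CPM, this share bears on the footprint levels printed here. A gene with equal footprints in both conditions after TMM scaling has a footprint CPM 1.18 times as high in sgDAMP as in sgControl, and all folds and interactions given here are on the TMM scale.

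Within sgControl, footprints of the lower genes were high for the mRNA. The CPM of footprints over the CPM of mRNA had a median of 19.2 over the 45 genes and of 0.848 over all genes tested. In sgDAMP these medians were 0.919 and 0.897. Ratios of at least 10 occurred in 30 of the 45 genes in sgControl (11.5% of all genes tested) and in 8 of the 45 in sgDAMP (9.27% of all). Among the 45, MDM2 and TGFBR1 had the highest ratios, at 716 and 715 in sgControl and 52.4 and 38.2 in sgDAMP, so both remained far above the median gene in either condition, where the highest ratio over all genes tested was 2150 in sgControl and 1980 in sgDAMP. As a rank among all genes tested after scaling, the ratio of the 45 genes had a median percentile of 94.3 in sgControl and 50.3 in sgDAMP. These ranks come from the same counts as the test and describe it.

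Scramble cells gave another reading of the same genes. The median percentile of the 45 genes there was 48.1, and 3 of the 45 genes stood at or above the 90th percentile, against 29 in sgControl and 8 in sgDAMP. The sgDAMP percentile was the nearer to that of Scramble in 32 genes and the sgControl percentile in 13. The 45 genes were called for footprints over mRNA that were higher in sgControl, so a rank near the middle falls nearer sgDAMP. No share over all genes tested was counted. The 45 genes held 0.0597% to 0.193% of Scramble footprint counts and 0.609% to 0.627% of Scramble mRNA counts. Coding genes, however, received only 6.68% to 20.5% of the Scramble footprint counts, against 79.3% to 79.7% in sgControl and 76.9% to 77.1% in sgDAMP. Set against the counts of coding genes alone, the footprints of the 45 genes came to 0.893% to 0.943% in Scramble, 11.9% to 13.5% in sgControl and 0.982% to 0.985% in sgDAMP. Scramble footprints are shallow, with 1035159 to 1302852 gene counts per library, and 26 of the 45 genes had fewer than 30 of them in all. The Scramble libraries also differ in how their reads fell on genes: 42.5% to 43.2% of mRNA reads were listed as falling on no gene, against 1.1% to 1.43% in sgControl and sgDAMP mRNA. In 4 genes (DSP-AS1, ENO1, PLAUR and WWTR1) the Scramble percentile was above that of sgControl. DSP-AS1 and PLAUR had percentiles of 99.5 and 95.3 in Scramble, 60.2 and 55.3 in sgControl, and 0.1 and 6.4 in sgDAMP. The part of these differences between libraries in the ranks was not tested.

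**Figure D3:**
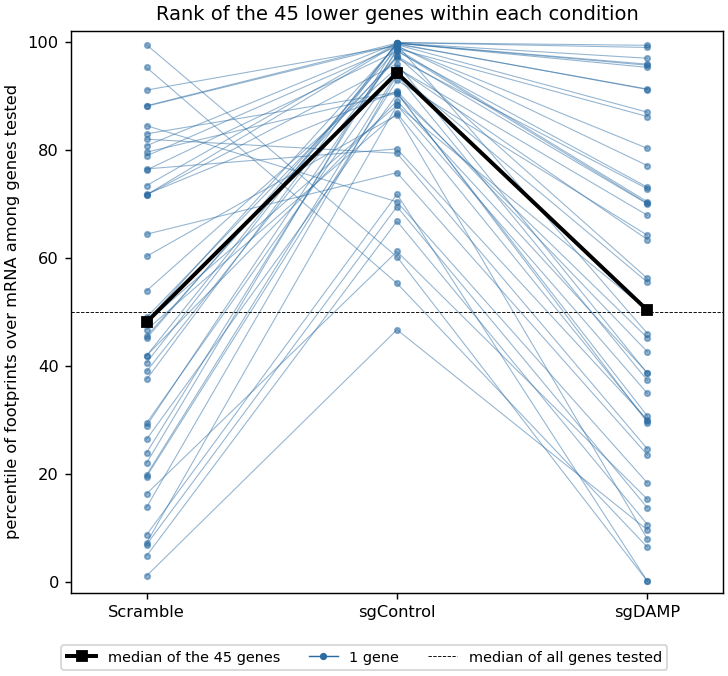
Percentile of footprints over mRNA among the 10168 genes tested, for each of the 45 lower genes (thin lines) and their median (black squares) in Scramble, sgControl and sgDAMP cells. The medians are 48.1, 94.3 and 50.3, and all 45 genes rank higher in sgControl than in sgDAMP.

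BCL2L1, a gene of apoptosis, had the interaction farthest below 0 of the 45 lower genes. BCL2L1 mRNA stood at 456, 442 and 358 CPM in sgControl and 529, 352 and 464 CPM in sgDAMP, and the groups overlapped. Its footprints stood at 1224, 1084 and 1042 CPM in sgControl and 3.38, 3.35 and 2.78 CPM in sgDAMP, with no overlap, and were 414-fold lower (95% counting interval 324 to 539). The interaction was -8.62 (SE 0.74, adjusted p = 0.000365). BCL2L2, which encodes the related survival protein BCL-W, had far fewer footprints, 10.4, 8.8 and 7.96 CPM in sgControl and 2.42, 1.89 and 0.879 CPM in sgDAMP. Its interaction was -3.02 (SE 0.60, adjusted p = 0.0483), the smallest among the lower genes. These were the only calls among 15 tested genes of the BCL2 family (13.3% lower, background 0.443%), whose median interaction was 0.00. This list and all those below were chosen with earlier results of these data known, so their shares of calls describe the members only. The call of BCL2L2 was lost in 10 of 24 alternatives (edgeR adjusted p up to 0.212), among them the omission of sgControl mRNA replicate 2, sgDAMP mRNA replicate 1 or 3, sgControl footprint replicate 1 or 2, or sgDAMP footprint replicate 3.

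Among cell-cycle genes, CDK4, CDKN1B, TFDP1 and RRM1 were lower. CDK4, whose product drives cells through G1 together with cyclin D, had mRNA of 255, 249 and 300.4 CPM in sgControl and 214, 336 and 304 CPM in sgDAMP. CDK4 footprints stood at 2581, 2180 and 1890 CPM in sgControl and 23.4, 21.9 and 21.8 CPM in sgDAMP. They were 116-fold lower (95% counting interval 106 to 128) without overlap, and the interaction was -6.79 (SE 0.66, adjusted p = 0.000584). CDKN1B, the gene of the CDK inhibitor p27, had footprints of 378, 483 and 465 CPM in sgControl and 48.8, 43.5 and 47.6 CPM in sgDAMP and an interaction of -3.63 (SE 0.69, adjusted p = 0.0397). TFDP1, the gene of a partner of E2F factors, had footprints of 534, 492 and 492 CPM in sgControl and 61.5, 62.2 and 57.3 CPM in sgDAMP and an interaction of -3.51 (SE 0.56, adjusted p = 0.0152). CDK4 and CDKN1B act in opposite directions on G1, and both were lower. These were 3 of 19 tested genes of the G1, RB and E2F list (15.8% lower, background 0.443%), and the list's median was -0.65. As with the BCL2 family, that share describes the members only. RRM1, a subunit of ribonucleotide reductase, was the only call among 43 genes of DNA replication (2.33% lower), with footprints of 4476, 4652 and 4860 CPM in sgControl and 364, 374 and 382 CPM in sgDAMP and an interaction of -4.21 (SE 0.67, adjusted p = 0.0152). The DNA replication list had a median of -0.47, with 35 of 43 values below 0. CDKN1B lost its call in 6 of 25 alternatives (adjusted p up to 0.181), which included leaving out sgControl mRNA replicate 2 or sgDAMP mRNA replicate 1 or 3. TFDP1 lost it without sgControl mRNA replicate 2 or sgDAMP mRNA replicate 3 (up to 0.0524), and RRM1 under upper-quartile scaling or without sgDAMP mRNA replicate 1 (up to 0.0591). Of the 39 genes of mitosis tested none passed, although all 39 had values below 0 (50.4% of all genes tested), with a median of -0.65. The median change of that list was -0.52 in footprints and 0.27 in mRNA. Without any one library the median of the mitosis list ran from -0.80 to -0.63.

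Among targets of p53 calls went in both directions. Of 25 tested, 2 were lower, PLK3 and MDM2, and 2 were higher, FDXR and BTG2 (8% each, background 0.443% and 0.0688%). The p53 list, too, was chosen with earlier results known, and its shares describe the members only. The median of the list was 1.08, with 22 of 25 above 0, and it stayed between 0.98 and 1.17 without any one library. PLK3, a stress-responsive kinase gene, had mRNA of 45.1, 43.4 and 34.9 CPM in sgControl and 42.5, 22.7 and 32.3 CPM in sgDAMP. Its footprints stood at 399, 323 and 333 CPM in sgControl and 10.3, 12.1 and 11.9 CPM in sgDAMP, and the interaction was -4.66 (SE 0.69, adjusted p = 0.0107). MDM2, which encodes the ubiquitin ligase that degrades p53, had low mRNA of 7.08, 9.82 and 14.8 CPM in sgControl and 15, 13.3 and 7.64 CPM in sgDAMP. MDM2 footprints were abundant in both conditions, 7865, 7310 and 7516 CPM in sgControl and 630.5, 619 and 632 CPM in sgDAMP, and did not overlap. Its interaction was -3.85 (SE 0.67, adjusted p = 0.0205). FDXR, the gene of a mitochondrial reductase, went the other way. FDXR footprints stood at 4.38, 3.32 and 4.62 CPM in sgControl and 36.2, 35 and 36.9 CPM in sgDAMP, its mRNA at 200.4, 220.1 and 173 CPM in sgControl and 189, 170 and 220 CPM in sgDAMP. The interaction was 3.10 (SE 0.60, adjusted p = 0.0436), and the mRNA groups overlapped. BTG2, an antiproliferative gene, had footprints of 4.82, 4.46 and 6.42 CPM in sgControl and 66.5, 61 and 59.6 CPM in sgDAMP and mRNA of 33, 28.4 and 36.8 CPM in sgControl and 57.5, 45.3 and 32.8 CPM in sgDAMP. Its interaction was 3.04 (SE 0.60, adjusted p = 0.0483), near the threshold. FDXR lost its call in 6 of 25 alternatives (adjusted p up to 0.163), including the omission of sgControl mRNA replicate 1 or 2, sgDAMP mRNA replicate 1 or 3, or sgControl footprint replicate 2. BTG2 lost it in 9 (up to 0.192), including the omission of sgControl mRNA replicate 2, sgDAMP mRNA replicate 1 or 3, sgControl footprint replicate 1 or 2, or sgDAMP footprint replicate 1. MDM2 lost it in 4 (up to 0.0843), under 2 scalings and without sgControl mRNA replicate 2 or sgDAMP mRNA replicate 1. The remaining 21 targets did not pass: PHLDA3 had an interaction of 2.003, XPC of 1.75 and CDKN1A, the gene of p21, of 1.74, values named after they were seen. With 12 separate libraries, the less strict fit, 8 of the 25 were higher and 2 lower, against 2.02% and 1.51% of all genes tested.

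Receptors and signalling genes made up 18 of the 45 lower genes in a grouping by known role that was made after the calls were seen, and for which no share over all genes was counted. Their interactions ran from -5.61 to -3.10. EGFR, whose kinase drives many lung adenocarcinomas, had mRNA of 56, 65.7 and 74.8 CPM in sgControl and 101, 46.4 and 48.4 CPM in sgDAMP. EGFR footprints stood at 6939, 8161 and 7258 CPM in sgControl and 469, 463 and 471 CPM in sgDAMP without overlap, and were 18.9-fold lower (95% counting interval 18.5 to 19.2). The interaction was -4.06 (SE 0.69, adjusted p = 0.0196), the only call among 25 genes of the ERBB and MAPK list (4% lower, background 0.443%, median 0.34). IGF1R, the receptor of insulin-like growth factor, had footprints of 4427, 4167 and 3732 CPM in sgControl and 257, 252 and 243 CPM in sgDAMP and an interaction of -4.33 (SE 0.72, adjusted p = 0.0167). RPTOR, the scaffold of the growth kinase complex mTORC1, had footprints of 2052, 1559 and 1814 CPM in sgControl and 96.2, 98.3 and 97.5 CPM in sgDAMP. Its interaction was -4.08 (SE 0.79, adjusted p = 0.0436), the only call among 21 genes of AKT and mTOR signalling (4.76%). It was lost in 5 of 25 alternatives (adjusted p up to 0.142): total-count scaling and the omission of sgControl mRNA replicate 2, sgDAMP mRNA replicate 1 or 3, or sgControl footprint replicate 1.

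Genes of TGF-beta signalling and matrix gave 3 lower calls among 32 tested (9.38%, background 0.443%), against a list median of 0.45 that lay above 0. That share, too, describes a list chosen with earlier results known. SMAD2, which carries the TGF-beta signal to the nucleus, had mRNA of 21.2, 23.7 and 34.6 CPM in sgControl and 26.3, 26.9 and 21.2 CPM in sgDAMP. SMAD2 footprints stood at 305, 275 and 262 CPM in sgControl and 13.7, 13.1 and 13.3 CPM in sgDAMP, and the interaction was -4.37 (SE 0.59, adjusted p = 0.00774). TGFBR1, the type I receptor, was scarcely present in mRNA, 1.27, 2.92 and 2.4 CPM in sgControl and 3.32, 3.15 and 1.91 CPM in sgDAMP. Its footprints were abundant, 1670, 1595 and 1450 CPM in sgControl and 110.3, 108 and 102 CPM in sgDAMP, and the interaction was -4.29 (SE 0.69, adjusted p = 0.0152). PLAUR, the urokinase receptor, had footprints of 158, 141 and 154 CPM in sgControl and 6.93, 8.16 and 6.15 CPM in sgDAMP and an interaction of -4.10 (SE 0.61, adjusted p = 0.0109). In each of these genes the footprint groups did not overlap and the mRNA groups did. The call of TGFBR1 was lost without sgDAMP mRNA replicate 1 (adjusted p = 0.0739). Of the other signalling genes, PTPN14, a phosphatase of the Hippo pathway, had footprints of 366, 314 and 241 CPM in sgControl and 7.73, 8.89 and 9.96 CPM in sgDAMP. Its interaction was -5.24 (SE 0.80, adjusted p = 0.011). MAPK7 had an interaction of -4.34 and MAPK8IP1, a scaffold of JNK signalling, of -4.38, and both lost the call without sgDAMP mRNA replicate 1 or 3 (adjusted p up to 0.157 and 0.142). The largest mRNA change among the lower genes was that of BMP7, at -2.17, with an interaction of -5.16. BMP7 mRNA stood at 4.61, 3.45 and 4.24 CPM in sgControl and 1.46, 0.516 and 1.04 CPM in sgDAMP, without overlap. That change did not pass (edgeR adjusted p = 0.482, unadjusted p = 0.000206). With 1, 4 and 2 sgDAMP footprints, BMP7 passed the footprint count filter only through sgControl. The other calls in this group, added after their values were seen, were MDK, ACKR3, BAMBI, JAG1, WWTR1 and SDCBP, with interactions between -5.61 and -3.10.

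Transcripts tied to YTHDF1 in the wider literature gave 3 lower calls among 24 tested (12.5%, background 0.443%) and none higher. They were CDK4, ITGA6 and CTNNB1. ITGA6, an integrin subunit, had mRNA of 4.32, 8.01 and 9.91 CPM in sgControl and 12.3, 8.94 and 8.68 CPM in sgDAMP and footprints of 2771, 2443 and 2237 CPM in sgControl and 219, 209.5 and 218 CPM in sgDAMP. Its interaction was -4.04 (SE 0.67, adjusted p = 0.0167). CTNNB1 encodes beta-catenin, and its footprints stood at 11550, 10700 and 10380 CPM in sgControl and 922, 929 and 931 CPM in sgDAMP without overlap, against mRNA of 65.5, 56.7 and 102 CPM in sgControl and 90.6, 114 and 59.2 CPM in sgDAMP. The interaction was -3.86 (SE 0.65, adjusted p = 0.0182). ITGA6 lost its call without sgDAMP mRNA replicate 1 (adjusted p = 0.0591), as did CTNNB1, which also lost it under upper-quartile scaling (up to 0.0822). The other 21 did not pass: WEE1 had -1.31, MYC 0.12, CCND1 -0.06 and CTSB 0.94, values named after they were seen. Their values lay on both sides of 0, with 12 of the 24 below it. The list was put together from general knowledge with earlier results known, and its count supports no direction of its own.

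Lists of the translation machinery held no call, and with 0.511% of all genes tested called, lists of this size hold few calls or none in any case. None of 41 initiation factors and their partners passed (median -0.06), and the 2 with the smallest p were EIF3G and EIF6, at 1.01 (SE 0.56) and 1.004 (SE 0.57), with an adjusted p of 0.9999 each. EIF3G footprints stood at 13.3, 13.7 and 15.7 CPM in sgControl and 28.2, 27.7 and 26.2 CPM in sgDAMP without overlap. None of 15 elongation factors and related genes of the terminal oligopyrimidine class passed (median -0.06, with FAU at 0.68 and EEF1D at 0.68). Cytosolic ribosomal protein genes gave 0 calls of 73 (median -0.17), with RPS13 at -0.94 and RPL8 at 0.60, and the list's median ran from -0.48 to 0.07 without any one library. Writers, erasers and readers of m6A gave 0 of 22 (median -0.26), with METTL16 at 0.89. Genes of the integrated stress response gave 0 of 28 (median 0.06). ATF4, its central transcription factor, had mRNA of 432, 382 and 618 CPM in sgControl and 383, 663 and 438 CPM in sgDAMP and footprints of 513, 443 and 397 CPM in sgControl and 77.8, 77.9 and 86.4 CPM in sgDAMP. The footprint groups did not overlap, the mRNA groups did, and the interaction was -2.61 (SE 0.61, adjusted p = 0.167), short of the threshold. ATF4 passed with 12 separate libraries (adjusted p = 8.26e-05). SESN2 had 1.27. With 12 separate libraries EIF3G and EIF6 were called higher, as were 2.02% of all genes tested, and no ribosomal or m6A gene passed.

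**Figure D4:**
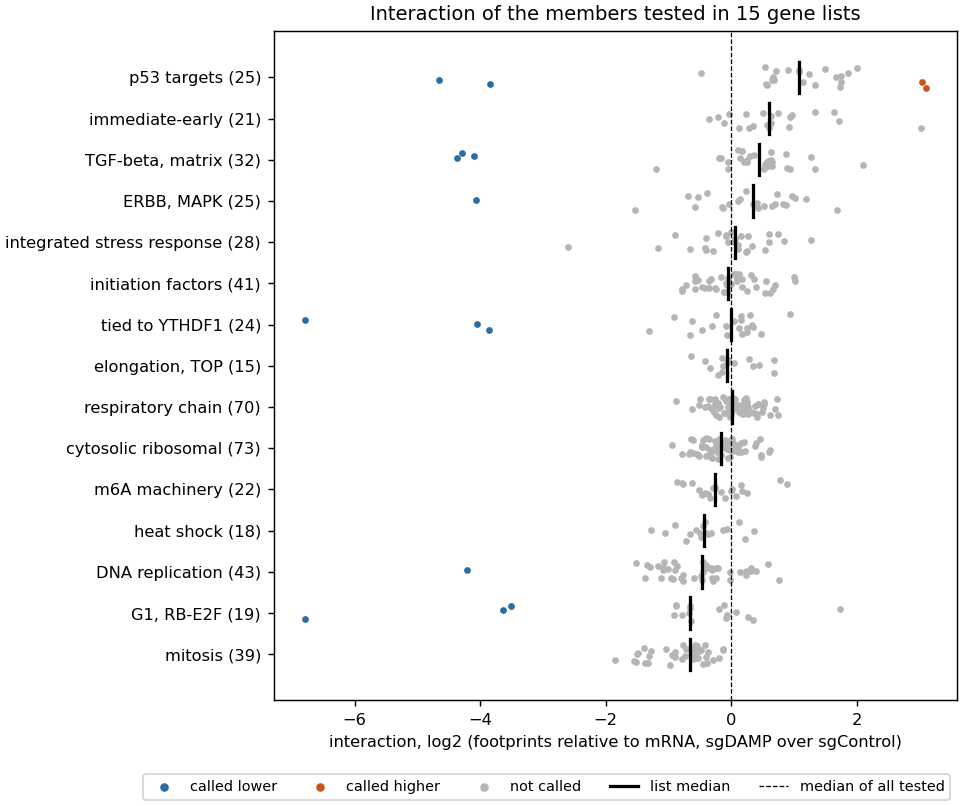
Interaction of the members tested in 15 gene lists, with the number tested in brackets. The horizontal axis is the log2 interaction (footprints relative to mRNA, sgDAMP over sgControl), each point is a gene, thick bars are list medians and the dashed line is the median of all genes tested. Blue and orange points passed the test. Calls in the p53 list lie on both sides, the mitosis list lies below 0 throughout without a call, and translation lists centre near 0.

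The remaining lower genes covered other roles. The grouping by role was made after the calls were seen, and no share over all genes was counted for the roles. Some regulators of transcription, such as TFDP1 and MNT, were counted under other roles. ENO1, the glycolytic enolase, had the most footprints of the 45 genes, 21550, 20910 and 17460 CPM in sgControl and 1084, 1106 and 1094 CPM in sgDAMP. ENO1 mRNA stood at 9288, 8677 and 6491 CPM in sgControl and 7310, 4375 and 6871 CPM in sgDAMP, and its interaction was -3.85 (SE 0.67, adjusted p = 0.0205), the only call among 31 genes of glycolysis and hypoxia (3.23% lower, background 0.443%). HYOU1, a chaperone of the endoplasmic reticulum, had an interaction of -3.89 (adjusted p = 0.0312), the only call among 23 genes of that list (4.35%). Without sgDAMP mRNA replicate 1 or 3, ENO1, HYOU1 and GATA4 lost the call (adjusted p up to 0.0714, 0.142 and 0.0912), and HYOU1 also without sgControl mRNA replicate 2. Among transcription and chromatin genes, 6 of the 45, the values were -7.35 for TWIST1, a factor of mesenchymal identity, -5.24 for the histone methyltransferase EZH2, -4.51 for GATA4, -4.40 for KMT2E, -3.44 for the deacetylase HDAC1 and -3.43 for YBX3. RNA-processing genes gave 3, with -4.96 for the spliceosome gene PLRG1, -4.04 for the mRNA 3′-end nuclease CPSF3 and -3.29 for NONO. MNT, a repressor paired with MAX, had -4.22, a call lost in 11 of 25 alternatives (adjusted p up to 0.16), among them the omission of sgControl mRNA replicate 2, sgDAMP mRNA replicate 1 or 3, sgControl footprint replicate 1 or 3, or sgDAMP footprint replicate 1 or 3. RCC1, a chromatin-bound protein that loads the GTPase Ran with GTP, had -4.15. The others were PARK7 at -4.09, TRIM32 at -3.95, GCNT2 at -4.11, OLFM1 at -4.49 and GLIPR2 at -4.56. Of the 45 lower genes 27 are in none of the 42 lists. Names in this paragraph outside the rule for named genes were added after their values were seen, so that all 45 are accounted for.

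The other 5 higher genes each had fewer than 30 summed sgControl footprints, and 4 of them are described here. LINC03040, a noncoding RNA, had 5, 3 and 3 footprints in sgControl and 131, 164 and 200 in sgDAMP, 43.1-fold more (95% counting interval 23.9 to 86.9), with an interaction of 5.42. S100A9 had 0, 1 and 0 against 40, 49 and 65, a ratio of 148 with a counting interval of 26.1 to 5863. RND1 had 1, 0 and 0 against 15, 12 and 17, a ratio of 42.1 with an interval of 7.18 to 1702. RN7SL3, a copy of the signal recognition particle RNA that shares sequence with other copies, had 7, 4 and 6 against 20, 23 and 35, and its reads are uncertain. RN7SL3 mRNA stood at 41.8, 42.5 and 39.5 CPM in sgControl and 23.5, 24.5 and 21.4 CPM in sgDAMP without overlap, a change of -0.98 (SE 0.26, edgeR adjusted p = 0.862) whose p was under 0.05 before adjustment. The mRNA changes of LINC03040, S100A9 and RND1 lay between -0.06 and 0.05, and none of the 4 passed in mRNA. All 4 had sgDAMP libraries above every sgControl library in footprints, but genes so low in sgControl passed the count filter in footprints through sgDAMP, where they are high, and had to differ. With at least 10 counts required in every library, 2 higher genes passed.

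**Figure D5:**
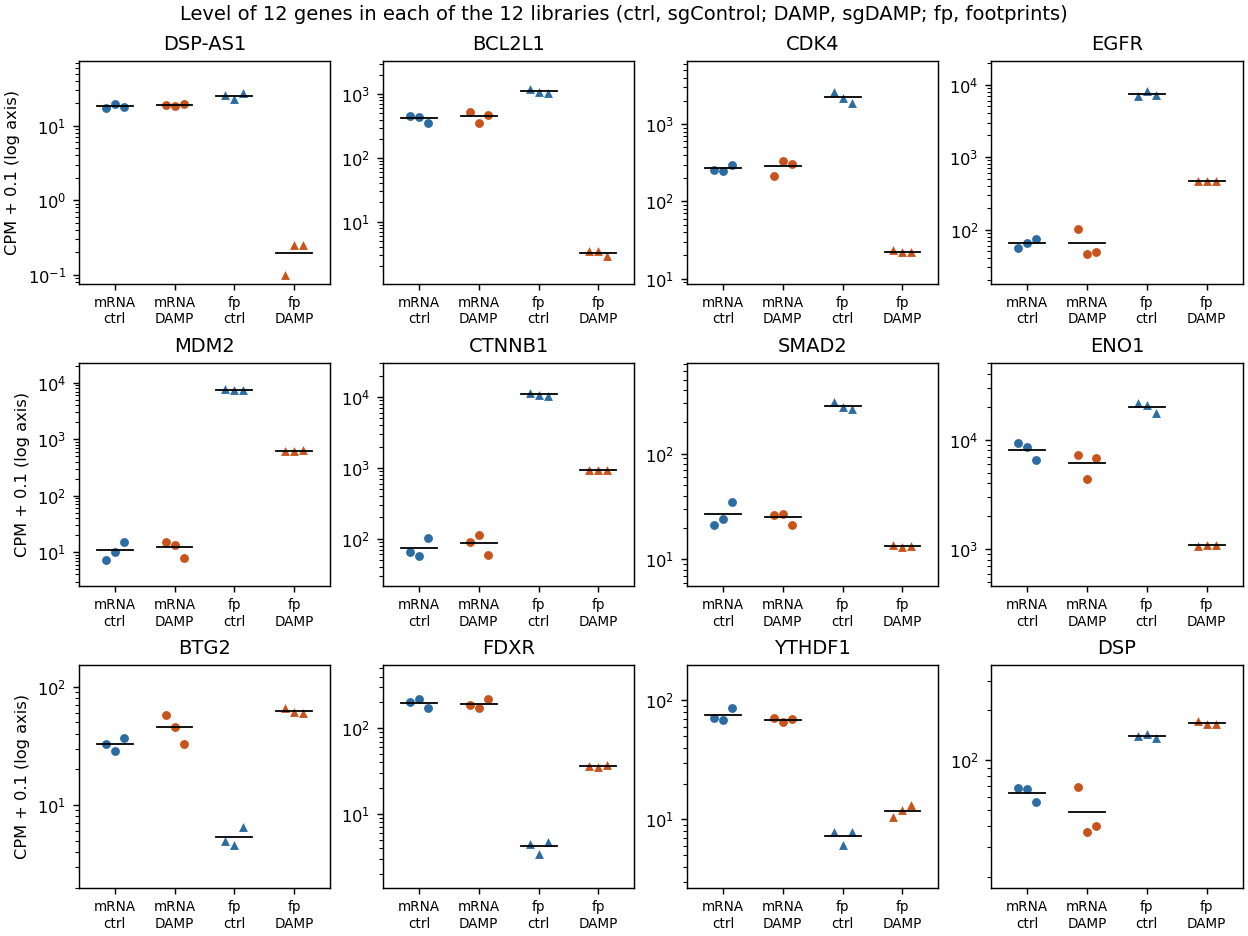
Level of 12 genes in each of the 12 libraries, as CPM plus 0.1 on a log axis whose range differs between panels. Circles are mRNA and triangles footprints, blue sgControl and orange sgDAMP, and each bar is the mean of 3 libraries. In the 8 upper panels (DSP-AS1 to ENO1) footprints drop in sgDAMP while mRNA overlaps, in BTG2 and FDXR they rise, and YTHDF1 and DSP did not pass.

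Some genes with a deep loss of footprints did not pass. Footprints were at least 4-fold lower in sgDAMP (log2 change of -2 or below) in 63 genes (0.62%), of which 45 passed. CUL4B, a scaffold of ubiquitin ligases, missed with -4.22 (SE 0.85, adjusted p = 0.0505), and its summed footprints were 4058 in sgControl and 361 in sgDAMP. MNAT1 had 24224 and 2007 summed footprints in sgControl and sgDAMP, RDX 3144 and 391, and DBF4 7476 and 1120. The SEs of these 4 interactions were 0.85 to 1.12, above the median of 0.68. ATF4 and FAM111B missed with SEs of 0.61 and 0.69, closer to that median, at interactions of -2.61 and -3.14 (edgeR adjusted p = 0.167 and 0.101). Footprints at least 4-fold higher occurred in 60 genes (0.59%), of which 7 passed and 53 had fewer than 30 summed sgControl footprints. These genes were chosen after their values were seen.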

How the data were processed

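Poly(A)-enriched mRNA and nuclease-protected, rRNA-depleted footprints of NCI-H1975 cells were sequenced. The deposited values are raw counts per gene, whole numbers made by the authors with 1 table per library. Reads were handled with HTSeq 0.11.2, HISAT2 2.1.0, Trimmomatic 0.30, SAMtools 1.10 and edgeR on build GRCh38, per the submitters' processing notes, which give no role or order. Not given in the sources used here are the annotation release, whether strand was used, and how multiply mapped reads were treated. The lines on reads assigned to no gene were left out of library sizes. They held 22.2% to 24.2% of sgControl and sgDAMP mRNA reads, 65.8% to 66.4% of sgControl footprint reads and 69.7% to 70.0% of sgDAMP footprint reads, of which ambiguous reads made 13.7% to 14.7% in mRNA and 2.99% to 3.18% in footprints. Symbols, spans and biotypes came from RefSeq tables of GRCh38.p14, matched by symbol, and the printed window from RefSeq of the same build.

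Genes passing filterByExpr (minimum count 10) in both assays were scaled by TMM within each assay, that is, by a trimmed mean of log ratios. R 4.3.3 with edgeR 4.0.16 gave the quasi-likelihood F test for the interaction of assay and condition, two-sided, with Benjamini-Hochberg adjustment over all genes tested and a threshold of 0.05. The 3 footprint libraries of a condition were summed, which leaves 4 residual degrees of freedom, all among the 6 mRNA libraries. The mRNA change was tested with edgeR on those 6 libraries. Footprint ratios carry exact Clopper-Pearson 95% intervals, and log2 footprint changes use a pseudocount of 0.5. The intervals take in counting error alone, because the libraries of a condition were summed and no spread between them enters. Where reads are copies of 1 molecule, the intervals are too narrow even for counting error. The scripts were tested on simulated data, where 57 of 67 changes of log2 size 4 were recovered. Of smaller changes, 6 of 67 of size 2 and 2 of 66 of size 1 were recovered, and 9 unchanged genes were called. The values of 1 higher gene are not reported here.

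The rule for named genes took DSP-AS1, DSP and YTHDF1, the 12 highest and the 12 lowest interactions among called coding genes that averaged at least 3 in log2 CPM in each assay and also passed with 12 separate libraries, up to 3 called members of each list, and 2 members of each translation list with fewer than 2 calls. The members and the 42 gene lists were chosen with earlier results of these data known. Alternatives were 12 separate libraries, a replicate block, scaling by total counts, the upper quartile or size factors of DESeq2 1.42.0, other filters, the Wald test of that tool, voom of limma 3.58.1, only coding genes, a minimum log2 size of 1, a joint fit with Scramble, and leaving out each library. Same-numbered libraries of different groups deviated from their group means with correlations of -0.475 to 0.392. Different numbers were not compared, so whether the numbers pair the samples is not shown.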

Additional observations from a re-analysis of the deposited data

How the results depend on the processing

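The count of 52 genes was 37 to 62 under scaling by DESeq2 size factors, upper quartile or total counts, other filters, limma-voom, the DESeq2 Wald test, only coding genes, a minimum log2 size of 1 and the joint fit with Scramble, with 34 to 51 lower genes. The 7 higher genes depended more on these choices: 3 passed under upper-quartile scaling, 3 under total counts, 12 without a filter, 2 with at least 10 counts in every library, 11 by the DESeq2 Wald test, 3 by limma-voom, 4 among coding genes alone and 11 in the joint fit. With 12 separate libraries 359 genes passed (205 higher, 154 lower). Scaling by the total counts of the genes not called lower, an alternative chosen after seeing the data, gave 43 calls, 3 of them higher. No scaling moved the median gene by more than 0.1.

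A replicate block could be run only with 12 separate libraries and gave 211 calls (117 higher, 94 lower). Whether the replicate numbers pair the samples is not shown, and all 52 genes also passed with the block.

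Leaving out each library in turn gave 27 to 62 calls, 1 to 12 higher and 26 to 50 lower. The fewest came without sgDAMP mRNA replicate 1 and without replicate 3 of that group. For the 27 named genes that passed, the call was kept in 600 of 672 pairs of gene and alternative, lost in 72 and reversed in 0. Some pairs could not lose the call. The minimum log2 size of 1 lies below every called change, and the rule for the highest and lowest genes required a pass with 12 separate libraries. BCL2L1, CDK4, DSP-AS1, EGFR, IGF1R, PLAUR, PLK3, PTPN14 and SMAD2 kept the call in every alternative run. Footprint depth limits the higher genes, 5 of which had fewer than 30 summed sgControl footprints.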
